A study of Mus musculus with 16 samples.

Results

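The semaphorins, plexins and neuropilins are the ligands, receptors and co-receptors of 1 guidance system. They were taken as every gene of the deposited table whose symbol is Sema3 to Sema7 with a letter from a to g, Plxna to Plxnd with a digit, or Nrp1 or Nrp2. This gave 31 of 29060 genes: 20 semaphorins, 9 plexins and 2 neuropilins. This rule reads gene symbols and no measured value, but the family was chosen with earlier results of these data known. Its counts are set beside those of all genes as description only. A filter on low values, at least 0.5 RPKM summed over all transcripts of a gene in at least 4 libraries, passed 30 of the 31, and Sema5b did not pass. RPKM is reads per kilobase of transcript, scaled to the depth of the library, a measure per length on which genes can be set side by side by 1 transcript each. Sums over transcripts depend on the number of entries of a gene. In white Fgf8b libraries Nrp2, with 16 entries, averaged 7.45 RPKM on 1 transcript and 102 summed, and Sema7a, with 3, averaged 91.8 and 264. Plxnb3, Sema4d and Sema4f passed the filter on the sum, although no library reached 0.5 RPKM on their representative transcript.

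Semaphorins are secreted, membrane-spanning or lipid-anchored proteins that steer the movement and shape of cells, first known as cues that repel growing axons. They bind plexins, single-pass receptors whose intracellular part acts on small Ras family GTPases, and the secreted class 3 semaphorins mostly need a neuropilin as co-receptor. Neuropilins also bind vascular endothelial growth factors, and in fat the system has been studied in nerve and vessel growth.

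The series measured RNA from primary preadipocytes, precursor cells that can become fat cells, grown from the stromal-vascular fraction of interscapular brown or inguinal white fat of C57BL/6N mice that carry a UCP1 reporter. All 4 groups carry this reporter. The groups were brown preadipocytes with Fgf8b, a secreted fibroblast growth factor (libraries 10, 12, 14 and 16), their controls (9, 11, 13 and 15), white preadipocytes with Fgf8b (2, 4, 6 and 8) and their controls (1, 3, 5 and 7). The sources used here give no dose, duration or age of the mice. The series title names the questions, which are the response to Fgf8b and the difference between brown and white cells.

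Library depth, recovered from the smallest steps of the values, ranged over 13.7 to 20.1 M reads. The design text speaks of 3 cultures but 4 libraries per group were labelled, with no key to the culture of each. P-values therefore measure the spread between these libraries, which may be partly technical. All brown libraries have higher numbers than the white ones, so depot cannot be told apart from any batch that follows the numbers. Brown control 15 stood apart: the chi-square of its reads per degree of freedom, set against the other brown controls, was 6.66 to 7.12, and 1.32 to 2.37 for the other pairs within a group. Fibroblast markers were high, and 11 of 12 reached 1 RPKM in a group. A set of accessions left out here had unequal repeated values in white libraries and not in brown ones. No source used here says whether the depots were quantified separately, and a depot difference cannot be told apart from such a step.

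The 250 bases before the annotated start are shown for 5 members, chosen after their values were seen. Sema7a, Plxnc1, Sema3c and Sema3d had the 4 largest absolute log2 fold changes among members in each depot, and Sema6b held a match to a motif of factors that act below growth factor signalling. Windows of Sema4c, Sema4d and Plxnb1, which are not printed, held such a match as well. With Fgf8b Sema4c rose, Sema4d fell and Plxnb1 did not pass. A link between motif and response was not tested. Windows came from RefSeq (build GRCm38.p6), where 26 of the 31 members matched with 37 windows. Both strands were searched for TGANTCA (AP-1), CCGGAAG (ETS), TGACGTCA (CRE) and GGGCGG (GC box), and no other motif was searched. Capitals mark every match, and each sequence is read on the strand of its gene.
Sema7a, chr9:57939862-57940111, plus strand: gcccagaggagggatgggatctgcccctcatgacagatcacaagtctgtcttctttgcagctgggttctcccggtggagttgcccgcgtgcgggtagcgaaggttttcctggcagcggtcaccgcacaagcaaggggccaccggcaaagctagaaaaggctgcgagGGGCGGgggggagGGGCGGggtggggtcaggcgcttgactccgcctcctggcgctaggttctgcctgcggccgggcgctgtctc
Plxnc1, chr10:94944846-94945095, minus strand: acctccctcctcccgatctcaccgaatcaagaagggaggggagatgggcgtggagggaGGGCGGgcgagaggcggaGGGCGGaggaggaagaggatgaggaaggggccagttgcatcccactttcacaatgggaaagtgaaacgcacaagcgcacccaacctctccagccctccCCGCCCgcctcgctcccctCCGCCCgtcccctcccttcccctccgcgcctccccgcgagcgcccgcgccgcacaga
Sema3c, chr5:17574566-17574815, plus strand: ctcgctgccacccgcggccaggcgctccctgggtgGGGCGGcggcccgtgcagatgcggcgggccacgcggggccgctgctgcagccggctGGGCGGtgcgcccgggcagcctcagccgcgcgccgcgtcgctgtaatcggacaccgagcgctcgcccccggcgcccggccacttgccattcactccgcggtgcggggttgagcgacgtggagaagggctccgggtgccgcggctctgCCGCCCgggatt
Sema3d, chr5:12382916-12383165, plus strand: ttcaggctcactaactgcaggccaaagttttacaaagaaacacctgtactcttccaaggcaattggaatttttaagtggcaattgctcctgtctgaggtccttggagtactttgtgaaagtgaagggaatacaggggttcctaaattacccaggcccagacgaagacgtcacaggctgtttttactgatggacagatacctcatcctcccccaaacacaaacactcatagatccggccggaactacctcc
Sema6b, chr17:56133853-56134102, minus strand, before the downstream of its 2 annotated starts, which lies within the gene: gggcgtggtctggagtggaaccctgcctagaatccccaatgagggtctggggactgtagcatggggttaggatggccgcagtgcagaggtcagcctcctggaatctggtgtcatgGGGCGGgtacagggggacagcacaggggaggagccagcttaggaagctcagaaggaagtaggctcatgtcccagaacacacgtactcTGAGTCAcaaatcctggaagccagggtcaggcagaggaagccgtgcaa
The windows of Sema7a, Plxnc1 and Sema3c held GC boxes and no AP-1, ETS or CRE match, and the Sema3d window held none of the 4 motifs. The Sema6b window held an AP-1 match, in the lettering TGAGTCA, beside a GC box, while the window before its upstream start held a GC box and no AP-1 match. Over all 32851 windows of this length, AP-1 was found in 6.75%, ETS in 6.91%, CRE in 1.55% and the GC box in 32.7%. Among the 37 windows of members, 3 held AP-1 (1 each of Sema4c, Sema4d and Sema6b), 1 ETS, 0 CRE and 27 a GC box. The median GC content was 64.0% in windows of members and 52.4% in all windows.

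With Fgf8b, Sema7a became the most abundant semaphorin transcript in both depots, while Plxnc1, its plexin receptor, and 5 of the 7 class 3 semaphorins fell. In brown preadipocytes 9 of 30 members were higher and 15 were lower with Fgf8b at an adjusted p under 0.05, where 36.7% of all 15222 genes tested were higher and 34.7% lower (71.4% either way). In white preadipocytes 10 of 30 were higher and 16 lower, where 36.3% of all genes were higher and 29.5% lower (65.7% either way). Changes of at least 2-fold were called for 5 members upward and 8 downward in each depot, where 5.01% and 9.29% of all genes passed in brown and 4.39% and 7.3% in white. The median absolute log2 fold change was 0.86 over members and 0.37 over all genes in brown, and 0.84 and 0.31 in white. Of the members, 8 were higher in both depots, 13 were lower in both, and Plxnb1, Plxnb3 and Sema6a passed in neither. The share of all genes called alike in both depots was not counted, so these joint counts have nothing to be set against. Without brown control 15 the brown counts were 9 higher and 14 lower.

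Values below are RPKM of 1 representative RefSeq transcript per gene, in the order of the library numbers given above. Family and class sums and shares add up 1 such transcript per gene, and means carry the SD of 4 libraries. Log2 fold changes, with their SE, were fitted on RPKM summed over all transcripts of a gene plus 0.5, which understates the change of low genes, and p-values are limma's, adjusted by Benjamini-Hochberg over all genes. In these bulk samples fewer cells of a type and less RNA per cell cannot be told apart. Exons of Plxna1, Plxna4, Plxnb1 and Sema4c overlap a transcript on the opposite strand in the GENCODE annotation, and no source used here says whether reads were counted by strand. Exons of Plxnc1, Nrp1 and Sema4a overlap a transcript on the same strand (Gm48718, Mir1903 and Mir7011). Reads of all these pairs cannot be told apart where they overlap.

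**Figure D1:**
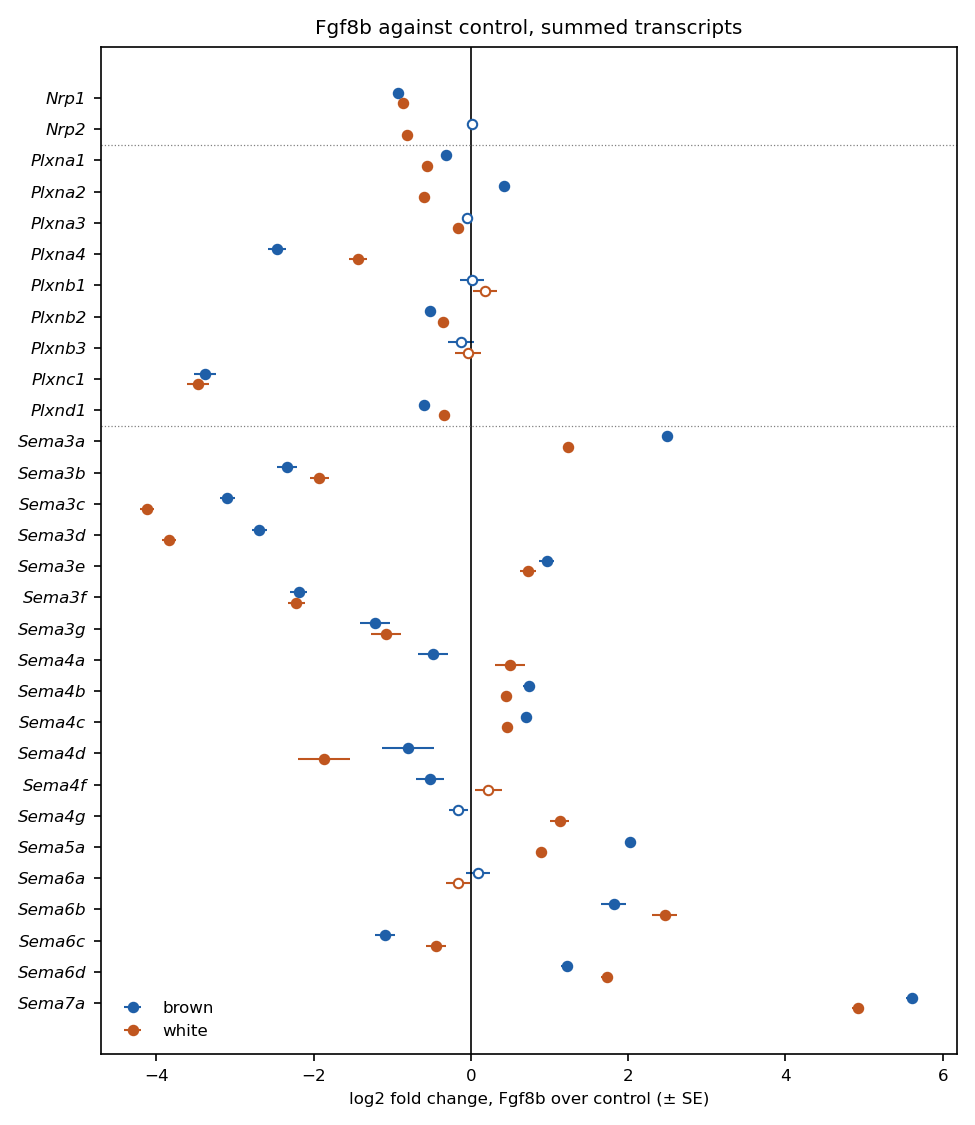
Log2 fold change of 30 members, Fgf8b over control, in brown (blue) and white (orange) preadipocytes, fitted on summed RPKM; bars are the SE, filled points passed an adjusted p under 0.05, and dotted lines divide neuropilins, plexins and semaphorins. Sema7a lies farthest to the right, at 5.61 in brown and 4.92 in white, and Sema3c, Sema3d and Plxnc1 lie farthest to the left.

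Of the neuropilins, Nrp1 fell in both depots, and Nrp2 fell in white cells and did not pass the test in brown ones. Nrp1, which carries signals of Sema3A and of vascular endothelial growth factor, had 25.1, 26.7, 26.9 and 28 RPKM in brown Fgf8b libraries, against 48.4, 50.1, 50.5 and 53.9 RPKM in brown controls. In white cells it had 19.3, 20.1, 20.4 and 20.8 RPKM in white Fgf8b libraries, against 37, 36.8, 37.9 and 37.7 RPKM in white controls. The Fgf8b libraries lay below the controls in each depot without overlap, 1.9-fold in brown and 1.85-fold in white preadipocytes by the group means. For Nrp1 the log2 fold change was -0.93 ± 0.04 (adjusted p = 8.57e-14) in brown and -0.87 ± 0.04 (adjusted p = 2.94e-13) in white preadipocytes. Nrp2, the usual partner of Sema3F and of Vegfc, had 7.79, 8.52, 8.3 and 8.21 RPKM in brown Fgf8b libraries, against 8.4, 8.33, 8.05 and 8.15 RPKM in brown controls. Its white values were 6.95, 7.55, 7.77 and 7.55 RPKM in white Fgf8b libraries, against 11.7, 13.3, 12.4 and 13.6 RPKM in white controls. The brown groups overlapped and the white groups did not. For Nrp2 the log2 fold change was 0.01 ± 0.05 (adjusted p = 0.841) in brown and -0.81 ± 0.05 (adjusted p = 5.89e-11) in white preadipocytes. The difference of the Nrp2 responses, brown minus white, was 0.82 ± 0.07 (adjusted p = 8.96e-08), and white controls were the only group above 10 RPKM in every library. Together the neuropilins gave 34.9 ± 1.42 RPKM in brown Fgf8b libraries and 58.9 ± 2.21 in brown controls, and 27.6 ± 0.948 in white Fgf8b libraries and 50.1 ± 1.07 in white controls.

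Class A plexins are the signalling partners of neuropilins. Plxna1 was the most abundant of them, with 27.5, 28.4, 27.4 and 27.2 RPKM in brown Fgf8b libraries, against 34.9, 35.3, 36.3 and 30.7 RPKM in brown controls. In white cells Plxna1 had 22.4, 22.8, 22.2 and 22.9 RPKM in white Fgf8b libraries, against 34.2, 33, 32.4 and 34.5 RPKM in white controls, and the groups did not overlap in either depot. For Plxna1 the log2 fold change was -0.32 ± 0.05 (adjusted p = 1.11e-05) in brown and -0.56 ± 0.05 (adjusted p = 7.02e-09) in white preadipocytes. Plxna2, a receptor of class 6 semaphorins as well, went opposite ways in the depots. It had 6.7, 7.43, 7.06 and 6.92 RPKM in brown Fgf8b libraries, against 5.14, 5.37, 5.16 and 4.71 RPKM in brown controls, and 1.81, 1.97, 1.89 and 1.82 RPKM in white Fgf8b libraries, against 2.71, 2.84, 2.82 and 2.81 RPKM in white controls. All 4 brown Fgf8b libraries were above the brown controls and all 4 white ones below the white controls. For Plxna2 the log2 fold change was 0.43 ± 0.06 (adjusted p = 6.66e-06) in brown and -0.60 ± 0.06 (adjusted p = 9.07e-08) in white preadipocytes, and the difference was 1.03 ± 0.09 (adjusted p = 7.99e-08). Plxna3, an X-linked relative, showed little movement, with 6.8, 6.91, 7.03 and 6.03 RPKM in brown Fgf8b libraries, against 7.24, 6.61, 7.12 and 5.87 RPKM in brown controls. Its white values were 7.79, 7.28, 7.16 and 7.11 RPKM in white Fgf8b libraries, against 8.7, 7.74, 8.41 and 7.98 RPKM in white controls. The brown groups overlapped, and the white ones did as well, at white Fgf8b 2 and white control 3. For Plxna3 the log2 fold change was -0.04 ± 0.07 (adjusted p = 0.555) in brown and -0.16 ± 0.07 (adjusted p = 0.0383) in white preadipocytes, and leaving out any of 6 white libraries (Fgf8b 4, 6 or 8, or control 1, 5 or 7) ended the white call, with adjusted p up to 0.111. Plxna4, best known from sensory and sympathetic neurons, was the class A member with the largest change. It had 0.362, 0.348, 0.359 and 0.384 RPKM in brown Fgf8b libraries, against 2.31, 2.43, 2.49 and 2.32 RPKM in brown controls, and 0.0638, 0.0998, 0.122 and 0.108 RPKM in white Fgf8b libraries, against 0.34, 0.457, 0.381 and 0.455 RPKM in white controls. Brown controls stood above every other group, and Fgf8b libraries of both depots lay below their controls, 6.57-fold in brown and 4.15-fold in white by the means. For Plxna4 the log2 fold change was -2.46 ± 0.12 (adjusted p = 7.15e-13) in brown and -1.43 ± 0.12 (adjusted p = 2.78e-09) in white preadipocytes, with 14 to 31 reads per white Fgf8b library behind the lowest values.

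Plxnb2, a receptor of class 4 semaphorins, was the most abundant plexin in each group. It had 54.2, 56.6, 56.2 and 53 RPKM in brown Fgf8b libraries, against 80.7, 82.8, 83.7 and 69.2 RPKM in brown controls, and 54.4, 53.8, 51.4 and 51.6 RPKM in white Fgf8b libraries, against 67.1, 68.4, 67 and 68.2 RPKM in white controls. No Fgf8b library reached its controls in either depot, though brown control 15 was the lowest of its group. For Plxnb2 the log2 fold change was -0.51 ± 0.05 (adjusted p = 1.52e-08) in brown and -0.36 ± 0.05 (adjusted p = 2.38e-06) in white preadipocytes. It made up 52.5 ± 0.222% of summed plexin RPKM in brown Fgf8b libraries and 56.2 ± 0.639% in brown controls, and 57 ± 0.70% in white Fgf8b libraries and 54.4 ± 0.596% in white controls. Plxnb1, the receptor of Sema4D, had 2.09, 2.01, 2.45 and 2.0 RPKM in brown Fgf8b libraries, against 2.43, 2.26, 2.31 and 2.14 RPKM in brown controls. In white cells it had 2.37, 2.66, 2.61 and 2.63 RPKM in white Fgf8b libraries, against 2.64, 2.63, 2.57 and 2.49 RPKM in white controls. These groups overlapped in both depots and neither comparison passed: the log2 fold change was 0.01 ± 0.16 (adjusted p = 0.944) in brown and 0.18 ± 0.16 (adjusted p = 0.324) in white. Plxnb3 stayed at trace level, at 5 to 9 reads per brown Fgf8b library and 5 to 10 per brown control, with no read in any white Fgf8b library and 0 to 1 per white control.

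Plxnc1, the plexin that binds Sema7A, fell more than any other plexin. It had 0.142, 0.104, 0.156 and 0.116 RPKM in brown Fgf8b libraries, against 1.81, 2.14, 2.18 and 2.32 RPKM in brown controls. In white cells Plxnc1 had 0.138, 0.186, 0.155 and 0.141 RPKM in white Fgf8b libraries, against 2.6, 2.26, 2.45 and 2.4 RPKM in white controls. No Fgf8b library was above 0.186 RPKM and no control below 1.81 RPKM, a difference of 16.3-fold in brown and 15.7-fold in white preadipocytes. For Plxnc1 the log2 fold change was -3.38 ± 0.14 (adjusted p = 1e-13) in brown and -3.47 ± 0.14 (adjusted p = 9.01e-14) in white preadipocytes, on 11 to 16 reads per brown Fgf8b library and 175 to 262 per brown control. Plxnd1, which binds Sema3E without a neuropilin and is known from blood vessels, had 6.07, 5.84, 5.92 and 5.37 RPKM in brown Fgf8b libraries, against 8.95, 9.0, 8.56 and 7.8 RPKM in brown controls. Its white values were 4.98, 5.26, 5.45 and 5.2 RPKM in white Fgf8b libraries, against 6.9, 7.03, 6.51 and 6.74 RPKM in white controls. Neither depot showed overlap. For Plxnd1 the log2 fold change was -0.59 ± 0.05 (adjusted p = 7.13e-09) in brown and -0.34 ± 0.05 (adjusted p = 1.36e-05) in white preadipocytes. Summed plexin RPKM was 105 ± 2.96 in brown Fgf8b libraries and 141 ± 10.5 in brown controls, and 92.6 ± 1.64 in white Fgf8b libraries and 124 ± 1.32 in white controls. Of the 9 plexins, 5 fell and 1 rose in brown cells, and 7 fell and 0 rose in white cells, where 34.7% of all genes were lower and 36.7% higher in brown and 29.5% and 36.3% in white.

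**Figure D2:**
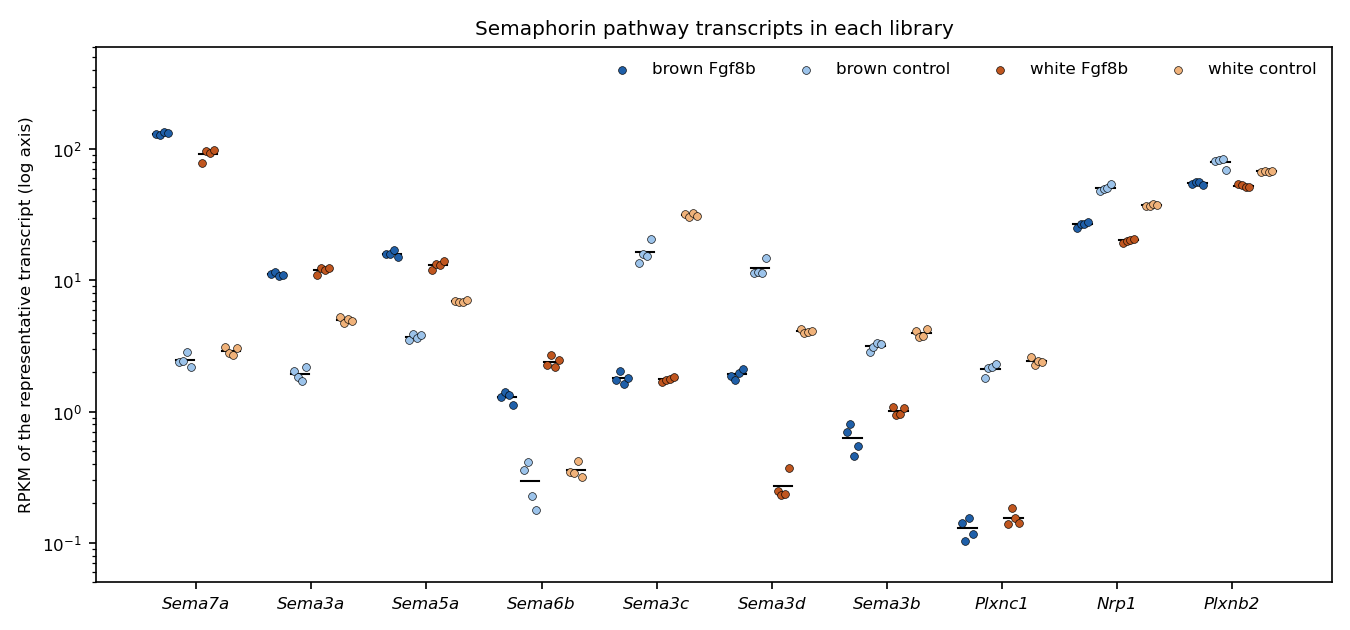
RPKM of the representative transcript (log axis) of 10 members in each library, 1 point per library and a line at the group mean, with brown Fgf8b, brown control, white Fgf8b and white control from left to right for each gene. Sema7a lies at 78.3 to 135 RPKM with Fgf8b and at 2.19 to 3.08 RPKM in controls, while Plxnc1 lies at 0.104 to 0.186 RPKM with Fgf8b and at 1.81 to 2.60 RPKM in controls.

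Among class 3 semaphorins, the secreted ligands of neuropilins, Sema3a and Sema3e rose and Sema3b, Sema3c, Sema3d, Sema3f and Sema3g fell, in both depots. Sema3a, the classical axon repellent, had 11.1, 11.5, 10.9 and 11.1 RPKM in brown Fgf8b libraries, against 2.03, 1.83, 1.7 and 2.18 RPKM in brown controls. In white cells Sema3a had 11, 12.4, 12 and 12.5 RPKM in white Fgf8b libraries, against 5.22, 4.73, 5.04 and 4.87 RPKM in white controls. The Fgf8b libraries of both depots reached nearly the same level, although white controls lay above brown controls. Its group means were higher with Fgf8b 5.75-fold in brown and 2.41-fold in white preadipocytes. For Sema3a the log2 fold change was 2.49 ± 0.06 (adjusted p = 6.51e-17) in brown and 1.24 ± 0.06 (adjusted p = 2.72e-12) in white preadipocytes. Sema3c, which guides neural crest cells in the outflow tract of the heart, had 1.75, 2.04, 1.63 and 1.81 RPKM in brown Fgf8b libraries, against 13.7, 15.8, 15.4 and 20.5 RPKM in brown controls. In white cells it had 1.69, 1.76, 1.77 and 1.84 RPKM in white Fgf8b libraries, against 31.9, 30.2, 32.8 and 30.9 RPKM in white controls. With Fgf8b it lay at about the same level in both depots, 9.03-fold in brown and 17.8-fold in white preadipocytes below the controls. For Sema3c the log2 fold change was -3.10 ± 0.09 (adjusted p = 7.45e-16) in brown and -4.12 ± 0.09 (adjusted p = 1.63e-17) in white preadipocytes. Sema3d, a relative of Sema3a, had 1.88, 1.75, 1.99 and 2.1 RPKM in brown Fgf8b libraries, against 11.4, 11.7, 11.4 and 14.9 RPKM in brown controls. Its white values were 0.246, 0.233, 0.236 and 0.37 RPKM in white Fgf8b libraries, against 4.25, 3.95, 4.01 and 4.13 RPKM in white controls. Brown libraries exceeded white ones under each treatment, and no Fgf8b library reached its controls. For Sema3d the log2 fold change was -2.69 ± 0.09 (adjusted p = 4.89e-15) in brown and -3.84 ± 0.09 (adjusted p = 3.78e-17) in white preadipocytes.

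The remaining class 3 members were Sema3b, Sema3e, Sema3f and Sema3g. Sema3f, which acts mainly through Nrp2, had 1.49, 1.33, 1.47 and 1.3 RPKM in brown Fgf8b libraries, against 7.74, 7.2, 7.06 and 5.6 RPKM in brown controls. In white cells Sema3f had 0.693, 0.618, 0.659 and 0.511 RPKM in white Fgf8b libraries, against 3.67, 3.38, 3.31 and 3.58 RPKM in white controls. It was lower with Fgf8b by 4.93-fold in brown and 5.62-fold in white preadipocytes, with brown above white in each condition. For Sema3f the log2 fold change was -2.19 ± 0.11 (adjusted p = 1.02e-12) in brown and -2.22 ± 0.11 (adjusted p = 1.07e-12) in white preadipocytes. Sema3b, another secreted neuropilin ligand, had 0.702, 0.81, 0.462 and 0.546 RPKM in brown Fgf8b libraries, against 2.83, 3.13, 3.34 and 3.28 RPKM in brown controls. White libraries held 1.09, 0.942, 0.957 and 1.07 RPKM with Fgf8b, against 4.08, 3.72, 3.76 and 4.23 RPKM in controls. No group of Fgf8b libraries overlapped its controls. For Sema3b the log2 fold change was -2.34 ± 0.12 (adjusted p = 3.3e-12) in brown and -1.93 ± 0.12 (adjusted p = 7.73e-11) in white preadipocytes. Sema3e, the ligand of Plxnd1, had 1.59, 1.64, 1.44 and 1.38 RPKM in brown Fgf8b libraries, against 0.827, 0.748, 0.649 and 0.889 RPKM in brown controls. White values were 0.661, 0.687, 0.63 and 0.677 RPKM in white Fgf8b libraries, against 0.391, 0.391, 0.432 and 0.37 RPKM in white controls. Each Fgf8b group lay above its controls, opposite to Plxnd1. For Sema3e the log2 fold change was 0.96 ± 0.10 (adjusted p = 7.58e-08) in brown and 0.72 ± 0.10 (adjusted p = 3.9e-06) in white preadipocytes. Sema3g averaged 0.281 ± 0.0792 RPKM in brown Fgf8b libraries and 0.796 ± 0.143 in brown controls, and 0.163 ± 0.0375 in white Fgf8b libraries and 0.435 ± 0.0726 in white controls, and fell in both, by log2 fold changes of -1.22 ± 0.19 and -1.08 ± 0.19 (adjusted p = 1.55e-05 and 7.13e-05).

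The make-up of the class was given by shares of its RPKM, summed over 1 representative transcript per gene. Sema3a was 59.6 ± 0.305% of summed class 3 RPKM in brown Fgf8b libraries and 4.59 ± 0.413% in brown controls. In white cells it was 72.7 ± 1.41% with Fgf8b and 10.2 ± 0.177% in controls. Sema3c, the leading member in both control groups by this measure, was 9.66 ± 0.634% in brown Fgf8b libraries and 38.5 ± 3.23% in brown controls, and 10.7 ± 0.202% in white Fgf8b libraries and 64.5 ± 0.933% in white controls. On RPKM summed over all transcripts Sema3c did not lead in brown controls, where it averaged 126 ± 22 and Sema3d 127 ± 15.1. The class as a whole held 18.7 ± 0.535 RPKM in brown Fgf8b libraries and 42.2 ± 3.92 in brown controls, and 16.5 ± 0.686 in white Fgf8b libraries and 48.8 ± 1.51 in white controls.

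Class 4 semaphorins span the membrane and bind mostly B plexins. Sema4c, a Plxnb2 ligand, was the most abundant, with 13.1, 12.5, 13.1 and 11.8 RPKM in brown Fgf8b libraries, against 7.67, 7.96, 8.52 and 7.1 RPKM in brown controls. In white cells Sema4c had 12.7, 12.6, 13 and 13.1 RPKM in white Fgf8b libraries, against 9.21, 10, 9.24 and 9.47 RPKM in white controls. It rose in both depots without overlap. For Sema4c the log2 fold change was 0.70 ± 0.06 (adjusted p = 2.71e-09) in brown and 0.46 ± 0.06 (adjusted p = 9.32e-07) in white preadipocytes. Sema4b had 8.17, 8.21, 8.91 and 7.88 RPKM in brown Fgf8b libraries, against 5.22, 4.81, 5.07 and 4.53 RPKM in brown controls. In white cells Sema4b had 6.43, 7.08, 7.38 and 7.86 RPKM in white Fgf8b libraries, against 4.86, 5.42, 5.1 and 5.64 RPKM in white controls. It too rose in both. For Sema4b the log2 fold change was 0.73 ± 0.07 (adjusted p = 2.16e-08) in brown and 0.45 ± 0.07 (adjusted p = 1.51e-05) in white preadipocytes. Sema4g, another Plxnb2 ligand, had 1.09, 0.848, 1.08 and 1.06 RPKM in brown Fgf8b libraries, against 1.08, 1.49, 1.2 and 0.868 RPKM in brown controls. White values of Sema4g were 2.91, 2.39, 2.6 and 2.93 RPKM in white Fgf8b libraries, against 1.32, 1.06, 1.08 and 1.26 RPKM in white controls. White Fgf8b libraries stood above all others, and the brown groups overlapped. For Sema4g the log2 fold change was -0.16 ± 0.12 (adjusted p = 0.255) in brown and 1.13 ± 0.12 (adjusted p = 1.85e-07) in white preadipocytes, and the difference was -1.29 ± 0.17 (adjusted p = 1.59e-05).

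The other class 4 members stayed at or below 1.02 RPKM in every library. Sema4a, known from T cells, averaged 0.396 ± 0.0321 RPKM in brown Fgf8b libraries and 0.54 ± 0.109 in brown controls, and 0.902 ± 0.14 in white Fgf8b libraries and 0.594 ± 0.152 in white controls. For Sema4a the log2 fold change was -0.49 ± 0.19 (adjusted p = 0.028) in brown and 0.50 ± 0.19 (adjusted p = 0.0276) in white preadipocytes. Both calls were marginal: the brown one was lost without Fgf8b 14 or 16 or control 11 or 13 (adjusted p up to 0.1) and with the representative transcript (-0.21, adjusted p = 0.0919), and the white one without any of 5 libraries (Fgf8b 2, 4 or 8, or control 5 or 7; adjusted p up to 0.104). Sema4d, the Plxnb1 ligand, averaged 0.102 ± 0.0317 RPKM in brown Fgf8b libraries and 0.287 ± 0.0912 in brown controls, and 0.0933 ± 0.0287 in white Fgf8b libraries and 0.30 ± 0.0654 in white controls. For Sema4d the log2 fold change was -0.80 ± 0.33 (adjusted p = 0.0363) in brown and -1.87 ± 0.33 (adjusted p = 6.14e-05) in white preadipocytes, and the brown call was lost without any of 5 brown libraries, Fgf8b 12 or 14 or control 9, 13 or 15 (adjusted p up to 0.158). Sema4f averaged 0.245 ± 0.0517 RPKM in brown Fgf8b libraries and 0.41 ± 0.0576 in brown controls, and 0.158 ± 0.0382 in white Fgf8b libraries and 0.129 ± 0.0522 in white controls, with log2 fold changes of -0.52 ± 0.18 (adjusted p = 0.0133) in brown and 0.22 ± 0.18 (adjusted p = 0.278) in white.

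Sema5a, a transmembrane semaphorin with thrombospondin repeats, rose in both depots. It had 16, 15.9, 16.9 and 15 RPKM in brown Fgf8b libraries, against 3.53, 3.91, 3.62 and 3.83 RPKM in brown controls. In white cells Sema5a had 12.1, 13.3, 13.1 and 14 RPKM in white Fgf8b libraries, against 6.96, 6.81, 6.86 and 7.03 RPKM in white controls. Its Fgf8b mean exceeded the control mean 4.28-fold in brown and 1.9-fold in white preadipocytes, and the groups did not overlap. For Sema5a the log2 fold change was 2.02 ± 0.05 (adjusted p = 5.82e-17) in brown and 0.89 ± 0.05 (adjusted p = 1.45e-11) in white preadipocytes. Sema5b, which was not tested, lay between 0 and 0.16 RPKM over all libraries.

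Class 6 semaphorins are transmembrane ligands of A plexins, and 2 of the 4 rose, 1 fell and 1 did not pass in each depot. Of all genes, 36.7% were higher and 34.7% lower in brown, and 36.3% and 29.5% in white, so these few members do not stand out by count. Sema6b had 1.28, 1.41, 1.34 and 1.11 RPKM in brown Fgf8b libraries, against 0.359, 0.412, 0.228 and 0.178 RPKM in brown controls. In white cells Sema6b had 2.28, 2.7, 2.18 and 2.48 RPKM in white Fgf8b libraries, against 0.349, 0.342, 0.421 and 0.316 RPKM in white controls. Fgf8b libraries exceeded controls by 4.37-fold in brown and 6.76-fold in white, on 11 to 25 reads per brown control and 21 to 30 per white control. For Sema6b the log2 fold change was 1.82 ± 0.16 (adjusted p = 5.1e-09) in brown and 2.46 ± 0.16 (adjusted p = 7.84e-11) in white preadipocytes. Sema6d, a Plxna1 ligand known from the heart of the chick embryo, had 3.78, 3.85, 4.09 and 3.79 RPKM in brown Fgf8b libraries, against 1.54, 1.81, 1.6 and 1.64 RPKM in brown controls. In white cells Sema6d had 2.48, 3.18, 2.9 and 3.08 RPKM in white Fgf8b libraries, against 0.957, 0.757, 0.859 and 0.941 RPKM in white controls. All Fgf8b libraries lay above their controls. For Sema6d the log2 fold change was 1.22 ± 0.08 (adjusted p = 5.16e-11) in brown and 1.73 ± 0.08 (adjusted p = 3.62e-13) in white preadipocytes. Sema6c had 0.967, 0.677, 1.37 and 0.814 RPKM in brown Fgf8b libraries, against 2.41, 1.87, 2.12 and 1.73 RPKM in brown controls. In white cells Sema6c had 2.4, 2.1, 1.96 and 1.87 RPKM in white Fgf8b libraries, against 2.95, 2.83, 3.07 and 2.54 RPKM in white controls. It was the class 6 member that fell. For Sema6c the log2 fold change was -1.09 ± 0.13 (adjusted p = 5.92e-07) in brown and -0.44 ± 0.13 (adjusted p = 0.00678) in white preadipocytes. Sema6a, a ligand of Plxna2 and Plxna4, averaged 0.915 ± 0.104 RPKM in brown Fgf8b libraries and 0.977 ± 0.186 in brown controls, and 0.799 ± 0.0516 in white Fgf8b libraries and 0.934 ± 0.128 in white controls, with log2 fold changes of 0.09 ± 0.15 (adjusted p = 0.629) in brown and -0.17 ± 0.15 (adjusted p = 0.352) in white.

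Sema7a, the only semaphorin held in the membrane by a lipid anchor, binds Plxnc1 and integrins that contain Itgb1. It had 131, 128, 135 and 132 RPKM in brown Fgf8b libraries, against 2.4, 2.42, 2.85 and 2.19 RPKM in brown controls. In white cells Sema7a had 78.3, 97.1, 94.2 and 97.8 RPKM in white Fgf8b libraries, against 3.08, 2.78, 2.69 and 3.05 RPKM in white controls. The groups were far apart, 53.4-fold in brown and 31.7-fold in white preadipocytes, with 6297 to 6892 reads per brown Fgf8b library and 108 to 149 per brown control behind them. For Sema7a the log2 fold change was 5.61 ± 0.08 (adjusted p = 1.53e-20) in brown and 4.92 ± 0.08 (adjusted p = 1.05e-19) in white preadipocytes. Plxnc1, by contrast, fell 16.3-fold in brown and 15.7-fold in white cells, and Itgb1, added after its values were seen, was abundant throughout, at 384 ± 6.19 RPKM in brown Fgf8b libraries and 384 ± 23.8 in brown controls, and 393 ± 7.3 in white Fgf8b libraries and 334 ± 3.68 in white controls. Itga1, a chain that pairs with Itgb1, was lower with Fgf8b, at 1.69 RPKM against 9.33 in brown controls and 1.89 against 5.94 in white controls. By 1 representative transcript per gene, Sema7a accounted for 67.1 ± 0.724% of summed semaphorin RPKM in brown Fgf8b libraries and 3.6 ± 0.475% in brown controls. In white cells it accounted for 59.7 ± 1.82% with Fgf8b and 3.6 ± 0.221% in controls. These shares depend on the measure. On RPKM summed over all transcripts, Sema7a averaged 379 and Sema5a 173 in brown Fgf8b libraries, and 264 and 146 in white ones. Summed over all 20 semaphorins, RPKM was 196 ± 4.28 in brown Fgf8b libraries and 68.6 ± 2.43 in brown controls, and 154 ± 11.2 in white Fgf8b libraries and 80.6 ± 1.35 in white controls. Without Sema7a the sums were 64.4 ± 2.03 in brown Fgf8b libraries and 66.1 ± 2.58 in brown controls, and 61.7 ± 2.33 in white Fgf8b libraries and 77.7 ± 1.26 in white controls.

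**Figure D3:**
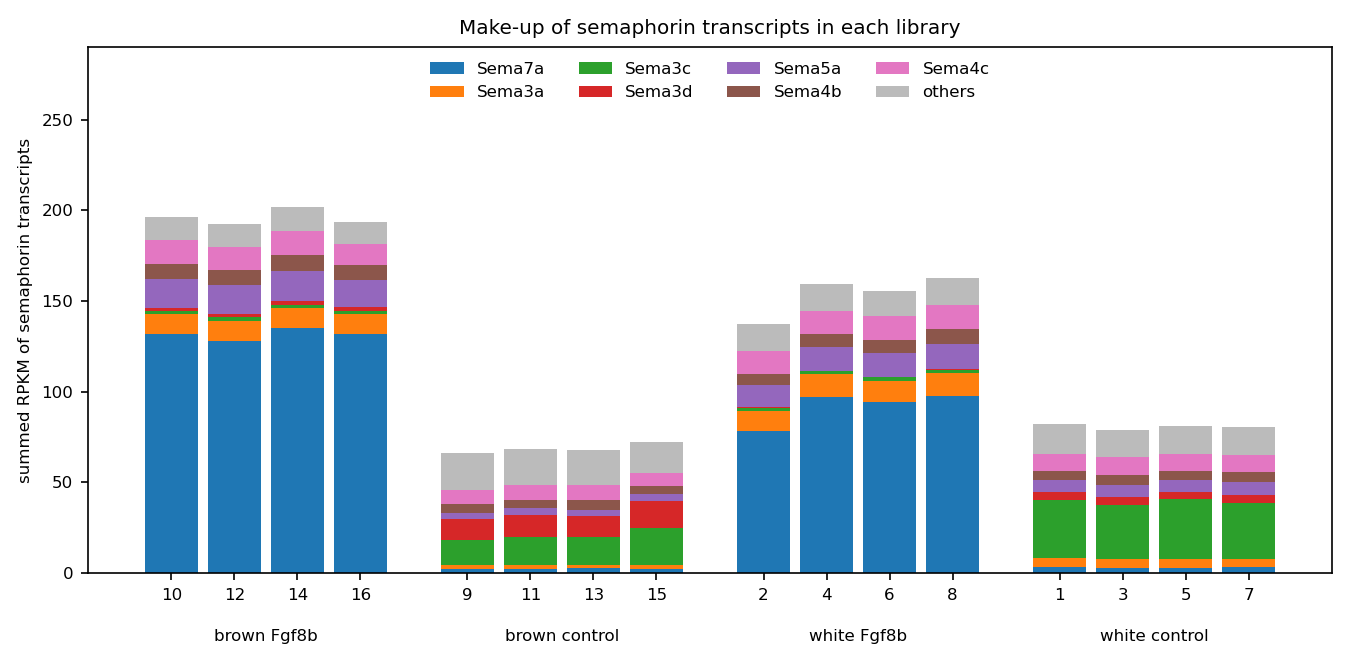
Summed RPKM of the 20 semaphorins in each library, stacked by gene from 0, for brown Fgf8b, brown control, white Fgf8b and white control libraries (library numbers under the bars). Genes without a block of their own are drawn together. Sema7a fills 66.4 to 68.1% of the Fgf8b bars in brown and 57.0 to 61.0% in white, and 3.04 to 4.2% of the control bars. In every control library Sema3c has the highest RPKM of any semaphorin gene, though genes drawn together can sum to more.

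Under control treatment, 12 of 30 members were higher and 8 lower in brown than in white preadipocytes, where 33.9% of all genes differed (18.1% higher and 15.9% lower). Sema3d, Plxna4, Sema4f and Plxnb3 were at least 2-fold higher in brown on the fitted scale, and Sema3a at least 2-fold lower, where 2.05% of all genes were at least 2-fold higher and 1.31% lower. Plxnb3 met the filter through 4 brown libraries and no white one, so its depot call was set by the filter, and its representative transcript had at most 1 read in a white library. Without it 11 of 29 members were higher, 3 of them at least 2-fold. Sema3d averaged 12.3 ± 1.7 RPKM in brown controls and 4.09 ± 0.129 in white controls, a log2 fold change of 1.53 ± 0.09 (adjusted p = 2.03e-10). Plxna4 averaged 2.39 ± 0.087 RPKM in brown controls and 0.408 ± 0.0579 in white controls, at 2.33 ± 0.12 (adjusted p = 1.66e-11). Sema3f, Plxna2 and Nrp1 were also higher in brown controls, by 0.94 ± 0.11, 0.83 ± 0.06 and 0.45 ± 0.04 on the log2 scale. Sema3a averaged 1.94 ± 0.212 RPKM in brown controls and 4.97 ± 0.21 in white controls, a log2 fold change of -1.37 ± 0.06 (adjusted p = 4.98e-12). Sema3c and Sema5a were lower in brown controls as well, by log2 fold changes of -0.96 ± 0.09 and -0.88 ± 0.05, as was Nrp2, at -0.61 ± 0.05.

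Among Fgf8b libraries, 15 of 30 members were higher and 5 lower in brown than in white cells, where 51.6% of all genes differed (26.9% higher and 24.7% lower). Changes of at least 2-fold were called for 4 members upward and 3 downward, where 1.79% and 2.52% of all genes passed. Without Plxnb3, whose call was set by the filter, 14 of 29 were higher and 9 were higher in brown under both treatments, among them Nrp1, Plxna2, Plxna4, Sema3d and Sema3f. The share of all genes higher in brown under both treatments was not counted. Of the 9, Sema3g lost its call among Fgf8b libraries without any of 9 libraries (adjusted p up to 0.167). Its call among controls was lost without either of 2 (adjusted p up to 0.0656). Sema4f lost its call among Fgf8b libraries without any of 4 (adjusted p up to 0.0876). Sema3d averaged 1.93 ± 0.149 RPKM in brown Fgf8b libraries and 0.271 ± 0.0661 in white Fgf8b libraries, a log2 fold change of 2.68 ± 0.09 (adjusted p = 5.68e-14). Plxna2 averaged 7.03 ± 0.308 RPKM in brown Fgf8b libraries and 1.87 ± 0.0736 in white Fgf8b libraries, at 1.86 ± 0.06 (adjusted p = 5.24e-14). Sema4g averaged 1.02 ± 0.115 RPKM in brown Fgf8b libraries and 2.71 ± 0.262 in white Fgf8b libraries, a log2 fold change of -1.33 ± 0.12 (adjusted p = 5.66e-08). Nrp2 and Sema5a, lower in brown under control treatment, were higher in brown with Fgf8b, by 0.21 ± 0.05 and 0.24 ± 0.05 on the log2 scale. Sema3a and Sema3c, called lower in brown controls, were not called with Fgf8b, at means of 11.1 ± 0.268 and 1.81 ± 0.17 RPKM in brown Fgf8b libraries and 12 ± 0.688 and 1.76 ± 0.0599 RPKM in white ones.

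**Figure D4:**
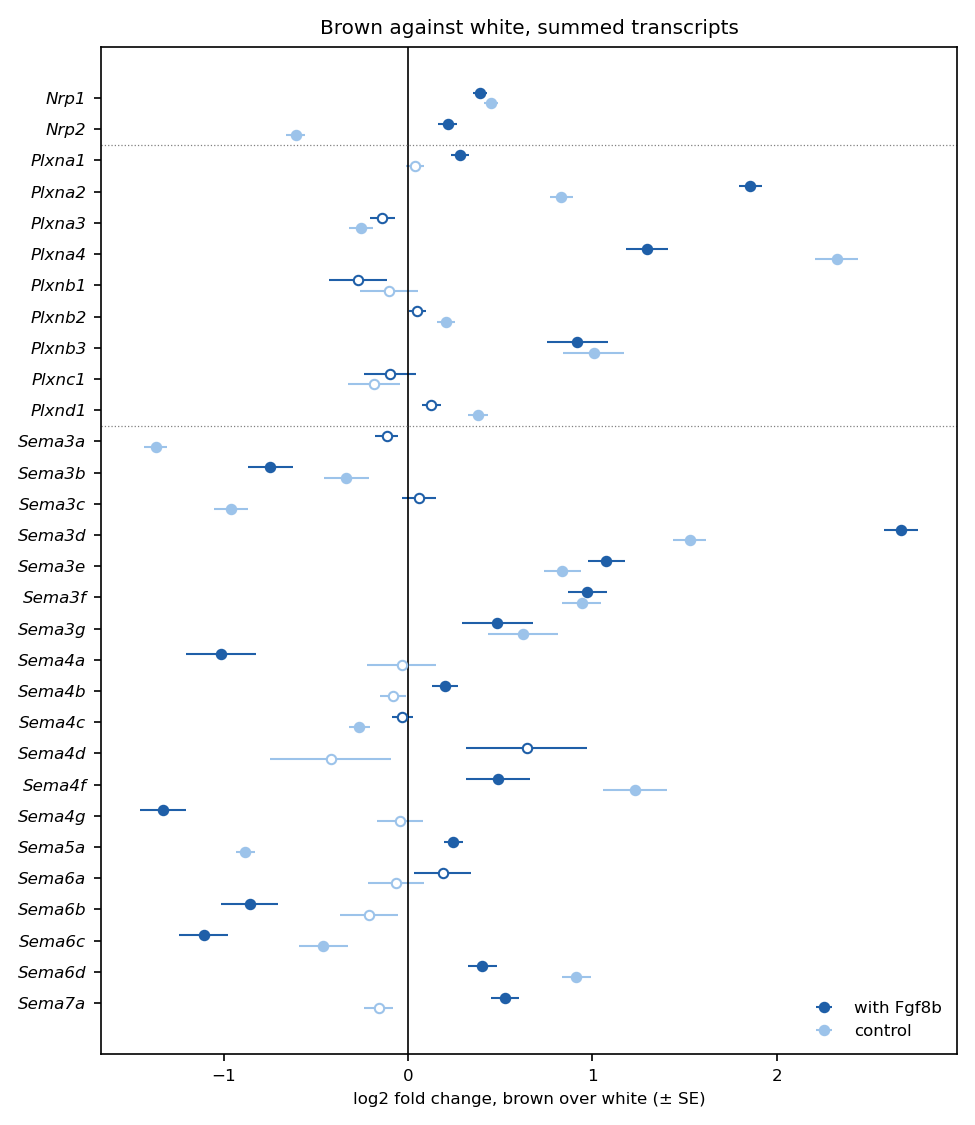
Log2 fold change of 30 members, brown over white, among Fgf8b libraries (dark blue) and among controls (light blue), fitted on summed RPKM; bars are the SE and filled points passed an adjusted p under 0.05. Sema3d lies at 2.68 with Fgf8b and 1.53 in controls, and Nrp2 and Sema5a lie on opposite sides of 0 in the 2 treatments.

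The difference of the Fgf8b responses, brown minus white, passed for 18 of 30 members, 10 upward and 8 downward, where 34.9% of all genes passed (17.1% upward and 17.8% downward). Differences of at least 2-fold were called for 5 members upward and 2 downward, where 1.46% and 2.51% of all genes passed. Without brown control 15 the counts were 9 and 8. The responses of Sema3a and Sema5a were larger in brown, by 1.25 ± 0.09 (adjusted p = 6.57e-09) and 1.13 ± 0.07 (adjusted p = 1.55e-09) on the log2 scale. The fall of Sema3c was smaller in brown, by 1.02 ± 0.13 (adjusted p = 8.07e-06), and white controls were higher than brown ones. The rise of Sema7a was larger in brown, by 0.69 ± 0.11 (adjusted p = 9.87e-05), and the fall of Plxna4 larger, at -1.03 ± 0.16 (adjusted p = 8.81e-05). Summed Plxna4 averaged 0.496 RPKM in white Fgf8b libraries, near the pseudocount of 0.5, which lessens its fitted fall in white cells. By the means of its representative transcript the falls were 6.57-fold in brown and 4.15-fold in white. Sema3d gave 1.15 ± 0.13 (adjusted p = 1.78e-06) on summed RPKM, but 0.18 (adjusted p = 0.245) on its representative transcript, which lies under the pseudocount of 0.5 in white Fgf8b libraries, and 0.90 (adjusted p = 0.000209) on that transcript with a pseudocount of 0.1. For Plxnc1, Nrp1 and Sema3f the difference did not pass, with adjusted p of 0.77, 0.451 and 0.897.

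A list of 61 partners of the system was examined beside the members: neuropilin co-ligands, co-receptors, other semaphorin receptors, cytoplasmic effectors, GTPases with their controls, and proteases. Of the 58 that passed the filter, 21 were higher and 24 lower with Fgf8b in brown cells, and 26 higher and 21 lower in white cells, where 71.4% of all genes were called either way in brown and 65.7% in white. The median log2 fold change was -0.05 in brown, where that of all genes was 0.01, and -0.01 in white, where that of all genes was 0.04. Pcsk6 and Pcsk5, proprotein convertases of the kind that cut class 3 semaphorins, both fell. For Pcsk5 the log2 fold change was -1.89 ± 0.17 (adjusted p = 7.28e-09) in brown and -2.45 ± 0.17 (adjusted p = 2.09e-10) in white cells. Pcsk6 averaged 0.481 ± 0.042 RPKM in brown Fgf8b libraries and 6.01 ± 0.388 in brown controls, and 0.149 ± 0.0543 in white Fgf8b libraries and 3.31 ± 0.234 in white controls, with log2 fold changes of -3.34 ± 0.14 (adjusted p = 1.46e-13) and -4.02 ± 0.14 (adjusted p = 1.2e-14). Furin, the best known of these proteases and added after its values were seen, averaged 39.7 ± 1.15 RPKM in brown Fgf8b libraries and 30 ± 3.0 in brown controls, and 41.7 ± 1.06 in white Fgf8b libraries and 30.6 ± 0.911 in white controls, and rose by 0.44 ± 0.07 (adjusted p = 9.12e-06) and 0.49 ± 0.07 (adjusted p = 2.71e-06). The adhesion co-receptors L1cam and Nrcam rose in both depots, by 1.19 ± 0.14 (adjusted p = 4.59e-07) and 2.10 ± 0.11 (adjusted p = 4.82e-12) in brown and 2.39 ± 0.14 (adjusted p = 2.85e-11) and 1.43 ± 0.11 (adjusted p = 1.88e-09) in white. Itga1, an integrin chain that pairs with Itgb1, fell by log2 fold changes of -2.44 ± 0.07 (adjusted p = 4.43e-16) in brown and -1.60 ± 0.07 (adjusted p = 2.94e-13) in white. Rasa1, a Ras GTPase activator, rose by 2.12 ± 0.05 (adjusted p = 4.48e-17) in brown and 1.47 ± 0.05 (adjusted p = 1.28e-14) in white, and Pgf, a neuropilin ligand, by 0.85 ± 0.15 (adjusted p = 4.22e-05) and 1.92 ± 0.15 (adjusted p = 1.21e-09).

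Markers of the labelled cells and of other cell types moved with Fgf8b as well, and their part in these results was not tested. The 12 preadipocyte and fibroblast markers summed to 1883 to 1979 RPKM in brown Fgf8b libraries and 4019 to 4666 in brown controls, and 3079 to 3252 in white Fgf8b libraries and 5937 to 6086 in white controls. They went both ways: the collagen gene Col1a1 averaged 234 RPKM in brown Fgf8b libraries and 1313 in brown controls, and 415 in white Fgf8b libraries and 1776 in white controls, while Thy1 averaged 555 RPKM in brown Fgf8b libraries and 294 in brown controls, and 746 in white Fgf8b libraries and 269 in white controls. The 9 mature adipocyte markers summed to 13.9 to 16.4 RPKM in brown Fgf8b libraries and 19.6 to 22 in brown controls, and 7.68 to 9.23 in white Fgf8b libraries and 12.1 to 13.3 in white controls. Most of this sum was Fabp4, at 5.82 to 18.1 RPKM over the group means, and Dgat2, at 2.1 to 2.8 RPKM, while Adipoq was at 0.0424 RPKM or less and Lep, Retn and Cfd were at 0. Dgat2 went against the sum, at 2.8 RPKM in brown Fgf8b libraries and 2.31 in brown controls, and 2.44 and 2.1 in white ones. The 10 leukocyte markers summed to 1.77 to 2.17 RPKM in brown Fgf8b libraries and 3.17 to 5.66 in brown controls, and 1.88 to 2.33 in white Fgf8b libraries and 2.52 to 3.24 in white controls. Among them Lyz2 reached 2.96, Cd68 1.61 and Csf1r 0.94 RPKM in a group mean, while the pan-leukocyte marker Ptprc was at 0.0053 RPKM or less. Cd68 went against this sum, at 1.1 RPKM in brown Fgf8b libraries and 0.593 in brown controls, and 1.61 and 0.913 in white ones. The 6 skeletal muscle markers summed to 2.12 to 2.64 RPKM in brown Fgf8b libraries and 7.82 to 10.1 in brown controls, and 1.64 to 2.42 in white Fgf8b libraries and 4.76 to 6.93 in white controls, nearly all of it Acta1, with Myod1 at 0. The summed level of 10 Schwann and glial markers was 5.14 to 6.67 RPKM in brown Fgf8b libraries and 18.4 to 20.7 in brown controls, and 2.78 to 3.77 in white Fgf8b libraries and 13.1 to 15.1 in white controls. Of these markers, the glial factor Sox10 averaged 0.929 RPKM in brown Fgf8b libraries and 1.23 in brown controls, and 0.0151 in white Fgf8b libraries and 0.0265 in white controls. Smooth muscle and pericyte markers, 7 in all and led by Acta2, summed to 270 to 318 RPKM in brown Fgf8b libraries and 971 to 1188 in brown controls, and 196 to 216 in white Fgf8b libraries and 628 to 716 in white controls. Rgs5 of this list went the other way, averaging 2.62 RPKM in brown Fgf8b libraries and 0.79 in brown controls. Its white means were 8.89 RPKM with Fgf8b and 0.38 in controls. The 8 neuronal markers summed to 18.3 to 21.5 RPKM in brown Fgf8b libraries and 2.74 to 2.89 in brown controls, and 65.3 to 67.5 in white Fgf8b libraries and 13 to 15 in white controls. Nearly all of this sum was Gap43 and Nefl, and Rbfox3 was at 0. Syp, Stmn2 and Syt1 went against it in brown, at 0.227, 0.0259 and 0.0457 RPKM with Fgf8b and 0.281, 0.059 and 0.0551 in controls. In white cells Syt1 was at 0.0117 with Fgf8b and 0.0278 in controls, Syp at 0.236 in both, and Stmn2 at 0.0319 and 0.0234. The 11 endothelial markers summed to 7.27 to 8.33 RPKM in brown Fgf8b libraries and 12.3 to 14 in brown controls, and 11.4 to 12.6 in white Fgf8b libraries and 16.5 to 18.8 in white controls, with Pecam1 at 0.172 RPKM or less in each group. Members of this list went opposite ways: Tek averaged 0.38 RPKM in brown Fgf8b libraries and 6.58 in brown controls, and 0.608 in white Fgf8b libraries and 9.29 in white controls. Egfl7 averaged 5.91 RPKM in brown Fgf8b libraries and 4.57 in brown controls, and 9.23 in white Fgf8b libraries and 6.15 in white controls, and Cdh5 averaged 0.844 and 0.571 RPKM in brown Fgf8b and brown control libraries and 1.92 and 1.13 RPKM in white Fgf8b and white control libraries.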

How the data were processed

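RNA of 16 libraries in 4 groups of 4 was measured by RNA sequencing, and CASAVA and bcl2fastq were used, per the submitters' processing notes. The authors deposited a table of 168326 transcript entries with 1 value per library and no unit in its header. The deposited values were taken as RPKM, since multiplied by transcript length and depth they fell on whole reads: within 0.1 read for 95.6 to 96.0% of values no larger than 50 reads. Aligner, genome build and strandedness: not given in the sources used here. Left out were 23172 entries without a gene symbol and 808 entries of 299 repeated accessions, none of a member; 145 of the 299 had unequal values in white libraries and 0 in brown ones.

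The 144549 entries used were summed by symbol to 29060 genes, of which 15222 had at least 0.5 RPKM in at least 4 libraries. Values were taken as log2(RPKM + 0.5) and fitted with limma 3.58.1 in R 4.3.3 (trend, robust) with 4 group means over all 16 libraries, which was tested on simulated data. A gene was called when its p, adjusted by Benjamini-Hochberg over all genes, was under 0.05. Levels are those of the RefSeq transcript of highest mean. Members of at least 1 RPKM in a group are given by library, and partners are the 4 of largest change per depot among those of at least 1 RPKM. Members, partner and marker lists were chosen with earlier results of these data known. Alternatives were other pseudocounts, filters, scalings, weights, the representative transcript, 1 depot alone and leaving out each library. Python 3.11.15 with pandas 2.3.3 and matplotlib 3.10.9 did the rest.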

Additional observations from a re-analysis of the deposited data

Results flagged for a closer look

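Single libraries stood apart from the other 3 of their group in 5 of 120 groups of 4 examined, where chance gives about 1 in 20. Plxnb3 was 0.0084 RPKM in white control 3, a single read, and 0 in the other white controls. Sema3d was 0.370 RPKM in white Fgf8b 8 and 0.233 to 0.246 RPKM in the others, and 14.9 RPKM in brown control 15 and 11.4 to 11.7 RPKM in the others. Sema4g was 0.848 RPKM in brown Fgf8b 12 and 1.06 to 1.09 RPKM in the others. Sema6a was 1.07 RPKM in brown Fgf8b 10 and 0.847 to 0.884 RPKM in the others. Sema3d in brown control 15 belongs to the library whose reads differed most from its group.

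The Fgf8b response differed between depots for 18 members by limma's test of the difference, brown minus white, on the log2 scale. Larger or more upward in brown were Sema3a (1.25), Sema3d (1.15), Sema5a (1.13), Plxna2 (1.03), Sema3c (1.02), Nrp2 (0.82), Sema7a (0.69), Sema4b (0.28), Plxna1 (0.24) and Sema4c (0.23). More downward in brown were Sema4g (-1.29), Plxna4 (-1.03), Sema4a (-0.98), Sema4f (-0.74), Sema6b (-0.65), Sema6c (-0.65), Sema6d (-0.51) and Plxnd1 (-0.25). The calls of Sema4b, Sema4c, Sema4f and Sema6b were lost without single libraries, 8, 7, 5 and 7 of the 16, with adjusted p up to 0.0759, 0.0681, 0.059 and 0.0638.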

How the results depend on the processing

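No paired analysis was possible because the groups share no replicate numbers and no label pairs their libraries. Under the alternatives, 2856 values for single members kept their direction and side of the threshold, 91 kept only the direction and 20 changed sign, all 20 of Fgf8b results that had not passed. All tested members were followed in the Fgf8b comparisons, but only called members in the depot comparisons and the difference. A depot comparison or difference that had not passed could therefore not be counted as changing sign. With the representative transcript, also at a pseudocount of 0.1 (chosen after seeing the data), the members with a lower response difference numbered 5 in place of 8. Plxnd1 and Sema6c (Plxnd1 and Sema6b at 0.1) then did not pass, and Sema4f was below the filter. Sign changes in brown were Nrp2 at -0.0173 (median-of-ratios), -0.0585 (upper quartile), -0.0047 (representative transcript) and -0.0049 (the same with 0.1), and Plxnb1 at -0.0136, -0.0512, -0.0807 and -0.0952 in these settings and -0.0893 with array weights. Sema6a in brown was -0.0557 and -0.074 with the representative transcript at 0.5 and 0.1 and -0.0067 with array weights, and Plxnb1 in white was -0.0067 and -0.0079 with that transcript. Leaving out 1 library, the brown values ranged over -0.0144 to 0.0454 for Nrp2, -0.0969 to 0.0005 for Plxna3, -0.1149 to 0.0971 for Plxnb1 and -0.0574 to 0.2172 for Sema6a. Called members then numbered 9 to 9 higher and 13 to 15 lower in brown, and 9 to 10 and 15 to 16 in white. They were 10 to 12 and 7 to 8 between control depots, 12 to 15 and 5 to 6 between Fgf8b depots, and 8 to 10 and 6 to 9 for the difference. Depth limits Plxnb3 and Sema5b, at 10 reads or fewer per library. Few reads of the representative transcript also lie behind calls of other members. Sema4d had 4 to 9 reads per brown Fgf8b library and 4 to 10 per white one. Sema4f had 10 to 13 per white Fgf8b library and 7 to 13 per white control, and Sema3g 9 to 12 per white Fgf8b library.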
